A study of Mus musculus with 2 samples.

Results

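The genes described here are 10 markers of stress in the endoplasmic reticulum and of the integrated stress response, read in single mouse liver cells 6 days after NRAS was delivered to hepatocytes. They are Hspa5, Dnajb9, Herpud1, Xbp1, Atf4, Ddit3, Atf3, Asns, Trib3 and Chac1. They were taken by symbol from the 31053 mouse genes of the count matrix, and all 10 were found there. The list is of known stress genes and no threshold on a measured value defines it, but it was drawn up with earlier results of these data known. Their levels were read in 8510 hepatocytes, by the amount of Nras RNA in the cell and by the depth of the cell, and in the other liver cell types of the same sort, out of 10220 cells that passed the quality filters.

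The cells came from livers of 3 female C57BL/6 mice injected hydrodynamically through the tail vein at 6 to 8 weeks of age, a procedure that drives plasmid into a share of hepatocytes. The plasmids carried NRAS(G12V), an oncogenic form, or NRAS(G12V/D38A), an effector-loop mutant used as the non-oncogenic control, each with the fluorescent protein mVenus under the strong, broadly active CAGGS promoter, and were given with the SB13 transposase that inserts them into the genome. Dissociated liver cells of each mouse were tagged with a hashtag antibody, sorted for mVenus, pooled, and run on 2 droplet lanes that cannot be told apart in the matrix. The mice are called here by their hashtag numbers, because the sources pair them differently with the alleles. The deposited pairing gives D38A to mouse 1 and G12V to mice 2 and 3, whereas the methods of the study give G12V to mice 1 and 2 and D38A to mouse 3. With 1 control mouse and an open pairing, no test between the alleles was made, and cells were compared within mice.

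The endoplasmic reticulum folds the proteins a cell secretes, and hepatocytes secrete much of the protein of the blood plasma. When unfolded protein builds up, the membrane sensors IRE1, ATF6 and PERK start the unfolded protein response: IRE1 splices Xbp1 mRNA into the form that encodes an active transcription factor, ATF6 is cut to release its transcription factor domain, and PERK phosphorylates the translation factor eIF2alpha. Phosphorylated eIF2alpha lowers protein synthesis in general and raises translation of Atf4 mRNA, and kinases that sense amino acid shortage, double-stranded RNA or haem shortage act on the same site, which is why this arm is called the integrated stress response. Atf4 protein is therefore set largely by translation, and Xbp1 activity by splicing, and neither is read by counting transcripts at the 3′ end.

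Of the 10 genes, the chaperone side is represented by Hspa5, which encodes the main luminal chaperone BiP, Dnajb9, its co-chaperone ERdj4, and Herpud1, a component of the machinery that sends misfolded protein to degradation. The transcription factors are Xbp1, Atf4, Ddit3 (CHOP, linked to cell death under lasting stress) and Atf3, which stress and mitogenic signals also induce. Asns (asparagine synthetase), Trib3 (a pseudokinase that restrains the response) and Chac1 (a glutathione-degrading enzyme) are targets of ATF4.

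The promoters of 3 members are shown because they hold the classical control elements of these arms. Each window runs from 250 bases before to 50 bases after the RefSeq transcription start (build GRCm38.p6) and is printed 5′ to 3′ on the strand of the gene. All 10 members matched a RefSeq promoter. Capitals mark motif matches found on either strand. The windows are chr2:34771840-34772139 for Hspa5 (plus strand), chr8:94386179-94386478 for Herpud1 (plus strand) and chr1:191183284-191183583 for Atf3 (minus strand).
Hspa5: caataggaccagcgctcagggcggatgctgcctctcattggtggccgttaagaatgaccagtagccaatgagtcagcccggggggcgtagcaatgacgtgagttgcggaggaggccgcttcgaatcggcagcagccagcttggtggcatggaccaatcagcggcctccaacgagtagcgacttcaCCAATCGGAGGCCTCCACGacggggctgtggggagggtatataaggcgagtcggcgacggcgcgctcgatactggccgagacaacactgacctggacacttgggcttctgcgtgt
Herpud1: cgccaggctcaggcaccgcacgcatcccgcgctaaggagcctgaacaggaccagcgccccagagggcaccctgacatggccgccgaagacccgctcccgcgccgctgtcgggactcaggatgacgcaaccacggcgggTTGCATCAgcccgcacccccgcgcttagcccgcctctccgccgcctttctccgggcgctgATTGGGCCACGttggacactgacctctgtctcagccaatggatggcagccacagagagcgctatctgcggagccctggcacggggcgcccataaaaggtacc
Atf3: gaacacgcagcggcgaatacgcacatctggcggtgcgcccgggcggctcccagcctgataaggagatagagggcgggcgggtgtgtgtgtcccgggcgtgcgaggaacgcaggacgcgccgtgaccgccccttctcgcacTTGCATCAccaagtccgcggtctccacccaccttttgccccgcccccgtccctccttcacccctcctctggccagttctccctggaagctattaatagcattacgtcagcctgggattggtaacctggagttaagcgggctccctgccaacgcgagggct
In the Hspa5 window the capitals mark an ER stress element (CCAAT, 9 bases of any kind, CCACG), the element bound by ATF6 and XBP1 together with NF-Y, which began 65 bases before the start. This element was found in 0.119% of the 32851 promoters of the same length. The Herpud1 window held the related ER stress element II (ATTGG, 1 base of any kind, CCACG) from 52 bases before the start, which 0.0365% of promoters held. Both elements end in the letters CCACG. Herpud1 and Atf3 also had a C/EBP-ATF response element (TGATGNAA), the kind of site that ATF4 binds, on the opposite strand at 112 and 110 bases before the start. That element was present in 5 of the 10 members (Atf3, Trib3, Chac1, Asns and Herpud1) and in 3.97% of all promoters. The cyclic AMP response element TGACGTCA, in 1.79% of promoters, and the unfolded protein response element TGACGTGG, in 0.676%, had no match in the 10 windows.

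The gene library held 142080194 unique molecular identifier counts (UMIs, 1 per captured transcript) in 13151 cell barcodes, of which 13139 were also in the hashtag library. Levels are given in CPM, the UMIs of a gene per 1000000 UMIs summed over all genes other than Nras and mVenus. Because each transcript is counted once at its 3′ end, levels of different genes are compared without division by length. Hepatocytes were cells in which Alb, Apoa1, Apoa2, Ttr and Fgb, abundant hepatocyte transcripts, made up at least 1% of UMIs. The samples are labelled hepatocytes, yet 548 endothelial-like, 564 conventional dendritic-like and 38 macrophage-like cells were gated among those that passed. Hashtags placed 456 hepatocytes in mouse 1, 1400 in mouse 2 and 422 in mouse 3, and 73.2% of hepatocytes were not called to a single tag. Cells were called deep at 10000 UMIs or more and shallow from 1000 to under 5000. In deep hepatocytes Nras classes were baseline (Nras under 300 CPM, here of all gene UMIs), low (300 to under 1000), intermediate (1000 to under 2000) and high (2000 or more). Over deep cells of any tag, mVenus went from 8.08 CPM at baseline through 79.6 and 166 to 332 CPM in the high class, in step with Nras. Whether transcripts of the delivered NRAS are counted under the mouse symbol Nras is not given, so the classes are of Nras RNA as measured. In 53.6% of the hepatocytes of mouse 3, 226 of 422, at least 3 markers of another cell type were detected, against 7.49% of all hepatocytes. Mouse 3 gave 21 deep baseline cells and 1, 1 and 2 cells in the other classes, so the Nras comparison rests on mice 1 and 2, which gave 153 and 827 baseline, 31 and 137 low, 15 and 68 intermediate and 32 and 97 high cells.

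In deep hepatocytes at baseline Nras, Hspa5 was the most abundant of the 10 genes in each mouse. Chac1 was the least abundant in mice 1 and 2, and in mouse 3 it went undetected together with Asns and Trib3. Hspa5 stood at 429 CPM in mouse 1, 873 CPM in mouse 2 and 371 CPM in mouse 3. Atf3 (200, 307 and 223 CPM in mice 1, 2 and 3) and Xbp1 (210, 277 and 192 CPM) came next, and their order changed between mice. Herpud1 followed at 95.1, 105 and 96.1 CPM. Atf4 (81.8, 82.8 and 91.7 CPM), Dnajb9 (44.7, 91.8 and 48.0 CPM) and Ddit3 (52.1, 58.1 and 59.0 CPM) overlapped as neighbours in this order when the mice are considered together. Asns and Trib3 were far lower, under 10 CPM, and in mouse 3, with 457923 UMIs in the class, neither was detected. Chac1 gave 36 UMIs in all 8510 hepatocytes, against 65511 for Hspa5, and could not be compared between classes at this depth.

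The next question was whether these genes differ with the amount of Nras. Across the Nras classes no member passed the test in either direction. Of 10631 genes tested between the high and the baseline class, 2647 (24.9%) had an adjusted p under 0.05 in edgeR's quasi-likelihood test, 1333 of them higher and 1314 lower, whereas 0 of the 9 members tested passed, and with DESeq2 0 passed as well. At an unadjusted p under 0.05 there were 2 members, Herpud1 and Xbp1, both with lower fitted levels at high Nras. The median log2 fold change was -0.31 over the 9 members and -0.02 over all genes tested. Between the intermediate and baseline classes 1844 genes (17.3%) and 0 of the 9 members passed (1 at an unadjusted p under 0.05), although Herpud1 was called lower in the intermediate class with no filter on low counts (-0.41, edgeR adjusted p = 0.0253) and with hashtags called by a fixed rule (-0.53, 0.0146). Between high and intermediate 2 genes (0.0188%) and 0 of 9 members passed (0 at an unadjusted p under 0.05). DESeq2 gave 0 members in both of these comparisons as well. The fit had 3 residual degrees of freedom, so the intervals below are wide and leave room for changes of either sign in most members. It joined mice 1 and 2, which carry different alleles under the deposited pairing and both G12V under the methods. Its fold changes and the absence of calls may therefore average over both alleles.

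**Figure D1:**
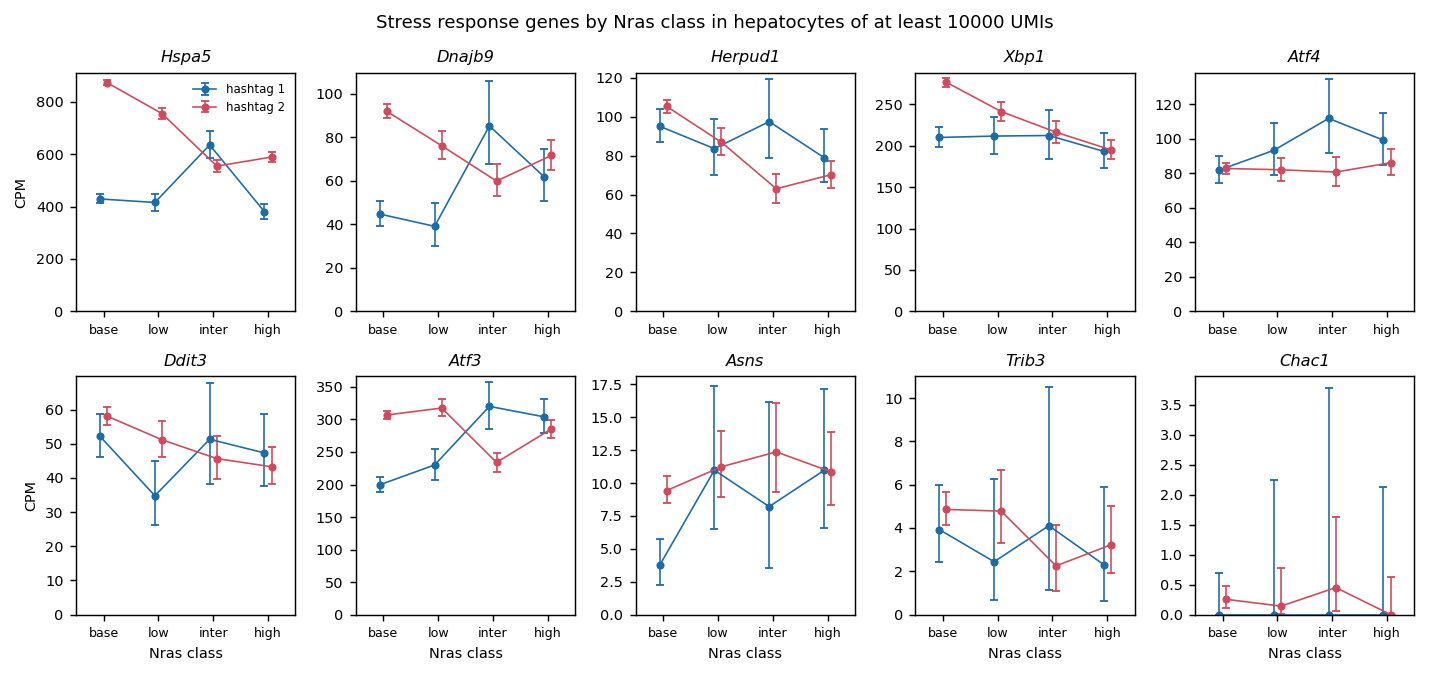
Levels of the 10 genes in deep hepatocytes by Nras class, in CPM from an axis that starts at 0, with 1 line for each of mice 1 and 2 (hashtags 1 and 2) over the baseline, low, intermediate and high classes, and exact 95% Poisson intervals as bars. Hspa5 stood apart between the mice at baseline, 429 against 873 CPM, and lay at 380 and 589 CPM in the high class.

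The chaperone genes did not follow the same course over the Nras classes in mice 1 and 2. Hspa5 (chr2:34771970-34777547 in GRCm38) was at 429, 416, 635 and 380 CPM in the baseline, low, intermediate and high cells of mouse 1. The same classes in mouse 2 had 873, 755, 554 and 589 CPM. All classes of mouse 2 lay above all but the intermediate class of mouse 1, and the log2 fold change between high and baseline was -0.38 ± 0.37 (SE; 95% interval -1.46 to 0.70, edgeR adjusted p = 0.572). When hashtags were called by a fixed rule it was -0.62 and passed (edgeR adjusted p = 0.00481). Dnajb9 (chr12:44205559-44210326) was at 44.7, 39.1, 85.2 and 61.7 CPM in mouse 1 and at 91.8, 76.0, 59.8 and 71.6 CPM in mouse 2. Its high class lay above baseline in mouse 1 and below it in mouse 2, and the fitted log2 fold change was -0.03 (95% interval -1.30 to 1.24, edgeR adjusted p = 0.987). Herpud1 (chr8:94386438-94395377) went through 95.1, 83.6, 97.5 and 79.0 CPM in mouse 1 and through 105, 86.9, 63.0 and 70.2 CPM in mouse 2. The high class had the lowest level in mouse 1 and the second lowest in mouse 2, with a log2 fold change of -0.43 ± 0.16 against baseline (SE; edgeR adjusted p = 0.0776). Herpud1 passed when no low-count filter was used and when libraries were scaled by size alone.

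The fitted differences of the transcription factor genes were of either sign. Xbp1 (chr11:5520659-5525893) was at 210, 212, 212 and 193 CPM in mouse 1 and at 277, 241, 216 and 195 CPM in mouse 2, the lowest values being those of the high class in both. Its log2 fold change was -0.31 ± 0.12 (SE; edgeR adjusted p = 0.0767). With the cells that held markers of another type left out, Xbp1 passed at -0.35 (edgeR adjusted p = 0.0325). Atf4 (chr15:80255184-80257541) was at 81.8, 93.4, 112 and 99.2 CPM in mouse 1 and at 82.8, 82.1, 80.8 and 86.2 CPM in mouse 2, nearly level in the second. Its log2 fold change was 0.17 (95% interval -0.11 to 0.44, edgeR adjusted p = 0.413), an interval that leaves out a doubling or a halving of the transcript. Ddit3 (chr10:127290774-127296288) had 52.1, 34.8, 51.3 and 47.3 CPM in mouse 1 and 58.1, 51.2, 45.7 and 43.3 CPM in mouse 2, where the level was lower in each class than in the class before. Its log2 fold change was -0.31 (95% interval -0.63 to 0.02, edgeR adjusted p = 0.177), or -0.40 when cells were split by quartiles of Nras, which passed (edgeR adjusted p = 0.0495).

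Summed Atf3 (chr1:191170296-191218039) lay higher at high Nras than at baseline in mouse 1 and slightly lower in mouse 2. In mouse 1 it was at 200, 230, 320 and 304 CPM from baseline to high, and in mouse 2 at 307, 318, 234 and 285 CPM. The log2 ratio of high to baseline was 0.61 in mouse 1 (95% counting interval 0.45 to 0.76) and -0.10 in mouse 2 (-0.18 to -0.03). Counting intervals leave out the spread between cells, which was 15.1 and 22.1 times Poisson variance in baseline cells of mice 1 and 2. They are too narrow to settle the sign in mouse 2. With cells thinned to 10000 UMIs, the share with Atf3 rose in both mice, from 49.0% to 65.6% and from 58.0% to 67.0%. The joint fit gave 0.24 (95% interval -0.65 to 1.12, edgeR adjusted p = 0.694). Hepatocytes with markers of another type made up 30.7% of the baseline cells of mouse 1 and 6.29% of those of mouse 2. In the high class they made up 12.5% and 17.5%. Without them baseline Atf3 in mouse 1 was 145 CPM, below the 200 CPM with them. Their part in the difference between the mice was not tested.

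The ATF4 targets were near the detection limit. Asns (chr6:7675169-7693254) was counted 20, 18, 8 and 19 times in the baseline, low, intermediate and high cells of mouse 1, which is 3.74, 10.98, 8.21 and 10.96 CPM. In mouse 2 it was counted 334, 80, 55 and 64 times, or 9.43, 11.2, 12.4 and 10.9 CPM. The baseline class had the lowest level in both mice, and the log2 fold change of high against baseline was 0.56 ± 0.30 (SE; 95% interval -0.09 to 1.21, edgeR adjusted p = 0.213). Trib3 (chr2:152337422-152344032) was at 3.92, 2.44, 4.10 and 2.31 CPM in mouse 1 and at 4.86, 4.78, 2.25 and 3.22 CPM in mouse 2, where the 4 classes held 172, 34, 10 and 19 UMIs. The log2 fold change was -0.63 (95% interval -1.50 to 0.23, edgeR adjusted p = 0.299). Chac1 (chr2:119351229-119354381) had 0 UMIs in every class of mouse 1 and 9, 1, 2 and 0 in mouse 2, and was left out by the low-count filter. A count of 0 in the high cells allows up to 1.73 CPM in mouse 1 and 0.509 CPM in mouse 2. Over deep cells of any tag, Chac1 had 6 UMIs in 195 high cells and 11 in 1723 baseline cells, or 0.572 and 0.174 CPM. These counts are small, and the difference was not tested.

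High-Nras cells were deeper, with a median of 53901 UMIs against 36162 at baseline, so the share of cells with a UMI was also read after each deep cell, of any tag, was thinned to 10000 UMIs. Atf3 was then detected in 54.4% of 1723 baseline cells and 66.2% of 195 high cells, and before thinning in 67.4% and 86.7%. Asns was seen in 5.69% and 12.3% of thinned cells (19.6% and 43.1% unthinned). For Herpud1 the thinned share was 54.3% at baseline and 45.1% at high Nras. Hspa5 (89.5% and 92.3%), Xbp1 (84.0% and 82.1%), Atf4 (56.0% and 57.9%), Dnajb9 (45.3% and 47.7%), Ddit3 (36.2% and 33.3%) and Trib3 (4.99% and 5.64%) differed by less than 4 percentage points. These shares pool the mice and cells not called to a single tag, carry counting error only, and were not tested. From baseline to high, Atf3, Asns and Atf4 rose in both mice 1 and 2. Xbp1 fell in both (74.5% to 65.6% and 89.1% to 80.4%). The others ran in opposite directions. Dnajb9 went from 27.45% to 59.4% in mouse 1 and from 55.7% to 46.4% in mouse 2. For Herpud1 these were 45.75% to 53.1% and 58.5% to 41.2%, and for Hspa5 81.1% to 96.9% and 96.6% to 94.85%.

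Genes that work with the members were read from 9 companion lists. Against the 24.9% of all genes that passed in high against baseline, the share was 46.15% of the ATF4 targets, 41.7% of the cell death list, 35% of the tRNA synthetases and 33.3% of the sensors and kinases. It was 25% of the chaperones and foldases and of the immediate early and heat shock list, 22.2% of the feedback list, 13.6% of translocation and exit and 11.1% of degradation, at or below the share of all genes. Of the 26 genes tested from the list named ATF4 targets in amino acid supply, 6 rose and 6 fell at high Nras. Whether ATF4 controls the listed genes in these cells was not tested. Psat1, an enzyme of serine synthesis, was at 8.60 and 18.5 CPM in the baseline and high cells of mouse 1 and at 7.26 and 29.5 CPM in mouse 2. It rose by a log2 fold change of 1.73 ± 0.21 (SE; edgeR adjusted p = 2.23e-05). Slc7a11, the cystine transporter (1.20), and Slc1a4, a neutral amino acid transporter (0.92), also rose. Cbs, which makes cystathionine from homocysteine, fell from 124 to 27.1 CPM in mouse 1 and from 97.9 to 27.3 CPM in mouse 2 (log2 fold change -1.97, edgeR adjusted p = 4.79e-08). Stbd1 (-2.25) and the transcription factor gene Atf5 (-1.52) fell too. The median of the list was 0.01, against -0.02 over all genes tested, so the list had no net direction.

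Of 20 genes for aminoacyl-tRNA synthetases, which charge tRNAs and include further ATF4 targets, 6 rose and 1 fell. Cars went from 12.9 to 30.6 CPM in mouse 1 and from 13.3 to 32.9 CPM in mouse 2 (log2 fold change 1.28, edgeR adjusted p = 2.40e-05). Qars (0.61) and Rars (0.58) rose, and Aars (-0.55) fell. Of the genes that act at the start of the response, neither Ern1 (log2 fold change -0.08, edgeR adjusted p = 0.813), which encodes IRE1, nor Atf6 (-0.09, 0.788), Eif2ak3, which encodes PERK (0.19, 0.785), or Eif2ak4, which encodes the amino acid sensor GCN2 (0.41, 0.470), passed the test. Among the 12 genes tested of that list, 3 rose, namely Atf6b (0.62), Creb3l2 (0.58) and Eif2s1 (0.58), the gene of eIF2alpha. Creb3l3, a liver transcription factor held in the same membrane, fell by 1.56 on the log2 scale, from 71.8 to 24.8 CPM in mouse 1 and from 87.1 to 28.3 CPM in mouse 2.

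In the feedback list 2 of 9 genes rose, Eif4ebp1 (log2 fold change 0.87), a repressor of translation initiation, and Ddit4 (0.72), an inhibitor of mTORC1. Ppp1r15a, which encodes the GADD34 subunit that returns eIF2alpha to the unphosphorylated state, was at 45.2 and 46.1 CPM in baseline and high cells of mouse 1 and at 43.6 and 43.8 CPM in mouse 2. Chaperone and foldase genes had 1 rise and 4 falls among 20: Ero1l (0.63) rose, and Selenom (-1.03), Txndc5 (-0.63), P4hb (-0.50) and a further gene fell. Of 18 genes for degradation from the endoplasmic reticulum, Derl3 (-2.44) and Sel1l (-0.89) fell and 0 rose. For Derl3 these were small counts, 4.86 and 1.15 CPM in mouse 1 and 7.82 and 1.36 CPM in mouse 2. Of 22 genes for translocation and exit, 0 rose and 3 fell, the channel subunit genes Sec61b (-0.43), Sec61g (-0.41) and Sec61a1 (-0.39).

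Of 12 genes linked to cell death under stress, 5 rose and 0 fell. Tnfrsf10b, the death receptor gene that CHOP can induce, went from 4.49 to 11.5 CPM in mouse 1 and from 5.03 to 12.7 CPM in mouse 2 (log2 fold change 1.34, edgeR adjusted p = 0.000945). Bcl2l1 (1.02) and Mcl1 (0.76), which encode inhibitors of apoptosis, were the next in size. Among 20 immediate early and heat shock genes 3 rose and 2 fell: Fosl1 (3.45), Ier3 (2.00) and Hspa8 (0.43) rose, whereas the cytosolic heat shock genes Hspa1b (-1.72) and Dnajb1 (-1.08) fell. With DESeq2, 1324 of 10631 genes passed. ATF4 targets then had 3 rises and 5 falls among 26, and cell death genes 4 and 0 among 12. The immediate early and heat shock list had 3 and 2 among 20, and sensors and kinases 1 and 1 among 12. The tRNA synthetases had 1 and 0 among 20, the feedback list 1 and 0 among 9, and translocation and exit 0 and 2 among 22. Of 20 chaperone and foldase genes and 18 degradation genes, 0 passed. Under DESeq2 14 of the 33 companion genes named with a change between Nras classes no longer passed, and without the hashtag block 13 did not. After thinning 30 of the 33 could be tested, and 12 of these did not pass. None of the 33 changed sign under the alternatives in which it could be tested.

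Depth was then examined on its own, within baseline Nras, because deep and shallow hepatocytes differed in much besides the number of UMIs. The chaperone genes, Xbp1 and Atf3 were higher in the deep cells, and Atf4 and Ddit3 did not pass the test. Of 5103 genes tested, 1440 (28.2%) passed, 843 higher and 597 lower in deep cells, and of the 7 members tested 5 passed, all of them higher. The median log2 fold change was 1.46 over these 7 members and -0.02 over all genes. Scaling by library size alone turned the split to 659 higher and 1165 lower, with the median of all genes at -0.27. Asns, Trib3 and Chac1 were left out by the filter on low counts. The sums held 143, 147 and 270 shallow cells of mice 1, 2 and 3, beside 153, 827 and 21 deep ones, and the fit had 2 residual degrees of freedom.

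**Figure D2:**
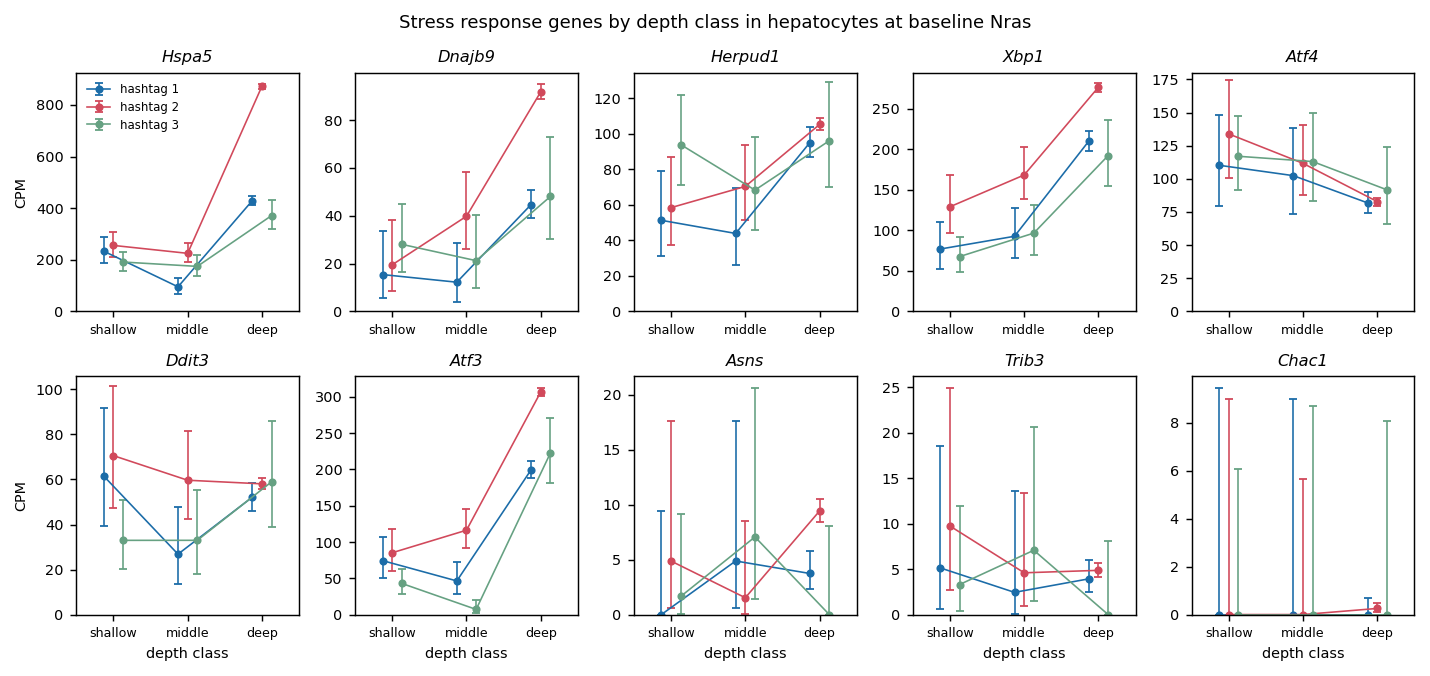
Levels of the 10 genes in baseline Nras hepatocytes of shallow, middle and deep cells, in CPM from an axis that starts at 0, for each mouse, with exact 95% Poisson intervals. Hspa5 lay between 191 and 256 CPM in shallow cells and between 371 and 873 CPM in deep cells of the 3 mice.

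Hspa5 went from 233 CPM in shallow to 429 CPM in deep cells of mouse 1, from 256 to 873 CPM in mouse 2 and from 191 to 371 CPM in mouse 3. All 3 deep values lay above all 3 shallow ones, and the log2 fold change was 1.46 ± 0.22 (SE; edgeR adjusted p = 0.00242). Dnajb9 went from 15.4 to 44.7 CPM, from 19.5 to 91.8 CPM and from 28.0 to 48.0 CPM in mice 1, 2 and 3, again without overlap. Its log2 fold change was 1.77 ± 0.33 (SE; edgeR adjusted p = 0.00404), and without mouse 2 it was 1.30 and no longer passed (0.0793). Herpud1 went from 51.3 to 95.1 CPM in mouse 1 and from 58.4 to 105 CPM in mouse 2, but stood at 93.9 and 96.1 CPM in mouse 3. The log2 fold change was 0.84 ± 0.23 (SE; edgeR adjusted p = 0.0254), a call that was lost without mouse 1 (adjusted p = 0.114), without mouse 2 (0.219), with DESeq2 (0.0654) and with scaling by library size alone (0.0708).

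Xbp1 went from 76.9 to 210 CPM in mouse 1, from 129 to 277 CPM in mouse 2 and from 67.6 to 192 CPM in mouse 3, a log2 fold change of 1.59 ± 0.17 (SE; edgeR adjusted p = 0.000184). Xbp1 also passed when hashtags were called by a fixed rule, under which no other member did. Atf3 had the largest difference of the members, from 74.3 to 200 CPM, from 85.2 to 307 CPM and from 42.9 to 223 CPM in mice 1, 2 and 3, a log2 fold change of 2.12 ± 0.21 (SE; edgeR adjusted p = 0.000132). The 3 mice moved alike in both genes. Atf4 had 110 and 81.8 CPM in shallow and deep cells of mouse 1, 134 and 82.8 CPM in mouse 2 and 117 and 91.7 CPM in mouse 3. All 3 deep values lay below the shallow ones, yet the log2 fold change of -0.25 did not pass (95% interval -0.64 to 0.14, edgeR adjusted p = 0.319). Ddit3 had 61.5 and 52.1 CPM in mouse 1, 70.6 and 58.1 CPM in mouse 2 and 33.0 and 59.0 CPM in mouse 3, overlapping groups with a log2 fold change of 0.29 (95% interval -0.30 to 0.89, edgeR adjusted p = 0.443).

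Cells of middle depth, from 5000 to under 10000 UMIs, were not tested. Their Hspa5 was at 95.1, 225 and 174 CPM in mice 1, 2 and 3, below the shallow value in each, with counting intervals that overlapped it in mice 2 and 3 and not in mouse 1. Over cells of any tag Hspa5 was at 108 CPM in 4215 shallow, 138 CPM in 1002 middle and 718 CPM in 1723 deep cells, the shallow value being lower than that of each mouse (191 to 256 CPM). Atf3 was at 27.3, 60.4 and 308 CPM and Xbp1 at 103, 122 and 255 CPM in the same order, while Atf4 was at 111, 99.2 and 86.7 CPM. Thinned to 2000 UMIs, Hspa5 was detected in 15.2% of shallow, 17.96% of middle and 60.8% of deep cells, and Ddit3 in 8.497%, 7.09% and 9.52%.

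Other measures moved with depth. The median mitochondrial share was 0.866% of UMIs in shallow and 7.34% in deep cells of mouse 1, 1.86% and 8.94% in mouse 2, but 6.47% and 5.42% in mouse 3, where the order was the opposite. Over cells of any tag it was 0.327% and 8.45%, the 5 hepatocyte gate genes summed to 3.02% and 9.19% of UMIs, and the immediate early and heat shock list summed to 2465 and 7285 CPM. Markers of another type were held by 23.1%, 32.0% and 51.5% of shallow cells and by 30.7%, 6.29% and 76.2% of deep cells in mice 1, 2 and 3. Without such cells the log2 fold change of Hspa5 was 2.29 (edgeR adjusted p = 0.092). Within deep baseline cells, those with a mitochondrial share of 0 to 5%, 5 to 10% and 10 to 20% had 280, 475 and 439 CPM of Hspa5 in mouse 1 and 886, 901 and 815 CPM in mouse 2. The part of RNA quality and of other cells in the difference was not tested beyond these values.

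Of all 5103 genes tested, 16.5% were higher and 11.7% lower in deep cells. Among the companion lists, 15 of 19 immediate early and heat shock genes (78.95%) were higher in deep cells, and 0 were lower. On the folding side 13 of 17 chaperone and foldase genes (76.5%), 7 of 14 genes of degradation (50%) and 14 of 19 of translocation and exit (73.7%) were higher in deep cells, and 0 were lower. P4hb, a protein disulfide isomerase, was at 87.2 and 354 CPM in shallow and deep cells of mouse 1, at 129 and 435 CPM in mouse 2 and at 98.9 and 293 CPM in mouse 3 (log2 fold change 2.03, edgeR adjusted p = 3.87e-05). Sec61a1 (2.09), Sel1l (1.62) and Txndc5 (1.53) were higher as well. Of 15 ATF4 target genes tested 2 were higher and 5 lower in deep cells, with Atf5 at -1.26 and Cbs at -0.86, and of 17 tRNA synthetase genes 0 passed in edgeR, in DESeq2 or at an unadjusted p under 0.05. Of 10 companion genes named for the Nras classes that also passed here, 9 did not pass with the fixed hashtag rule (among them Sec61a1, Sel1l, Txndc5, Atf5 and Cbs, but not P4hb), 6 did not without mouse 2 (among them Sel1l, Txndc5 and Atf5) and 4 did not without mouse 1 (among them Sel1l and Atf5). Sel1l also failed to pass with DESeq2, and Sec61a1 with the hepatocyte gate at 3%. The medians of the 3 folding lists were 1.43, 1.35 and 1.07, that of the ATF4 targets 0.01.

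**Figure D3:**
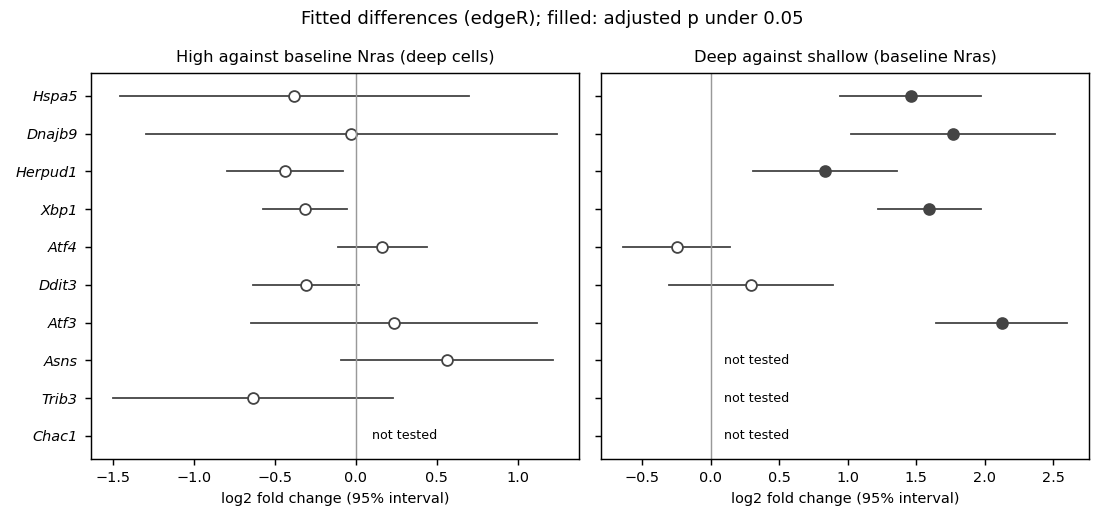
Fitted log2 fold changes of the members with 95% intervals, high against baseline Nras on 1 side and deep against shallow cells on the other, with filled points where the edgeR adjusted p was under 0.05. No point is filled for Nras, and 5 of 7 are filled for depth, from 0.84 for Herpud1 to 2.12 for Atf3.

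Across the cell types the members formed different orders. Baseline Nras hepatocytes of all depths were compared with types gated on markers outside the 10 genes, and 7 members were tested in each of 5 types over 4123 genes. Of these hepatocytes, 25.4%, 10.1% and 53.8% in mice 1, 2 and 3 held markers of another type. Endothelial markers summed to 201, 41.2 and 3823 CPM in them, against 18334 CPM in the endothelial-like cells of mouse 3. The part of such cells in the differences between types was not tested. Of the types tested, hepatocytes of all depths together had the most Xbp1, conventional dendritic-like cells the most Herpud1, and T or NK-like and B-like cells the most Atf4. The share of genes that passed was 44.8% in endothelial-like cells, where 1 member passed, 47.3% in conventional dendritic-like cells (2 members), 28% in macrophage-like cells (1), 48.1% in T or NK-like cells (3) and 30.1% in B-like cells (1). The median log2 fold change of all genes was -0.68 in B-like and -0.43 in T or NK-like cells and between -0.12 and 0.05 in the other types. Scaling by library size alone changed the split of calls from 941 higher and 907 lower to 1335 and 420 in endothelial-like cells and from 642 and 513 to 688 and 354 in macrophage-like cells.

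Xbp1 was at 194, 273 and 114 CPM in hepatocytes of mice 1, 2 and 3. Endothelial-like cells had 95.5, 87.7 and 95.8 CPM, conventional dendritic-like cells 62.6 and 58.2 CPM in mice 1 and 2, macrophage-like cells 96.0 and 67.0 CPM, and T or NK-like cells 33.3, 38.5 and 79.4 CPM. Each of these values lay below all values of hepatocytes of all depths together. In shallow hepatocytes alone Xbp1 was at 76.9, 129 and 67.6 CPM in mice 1, 2 and 3. These overlap the values of endothelial-like, macrophage-like and T or NK-like cells, but not those of conventional dendritic-like cells. The part of depth in the differences between types was not tested. The log2 fold change against hepatocytes was -1.59 ± 0.45 (SE; edgeR adjusted p = 0.0117) in endothelial-like, -1.52 ± 0.48 (0.0182) in conventional dendritic-like, -1.65 ± 0.57 (0.0447) in macrophage-like and -2.16 ± 0.54 (0.00538) in T or NK-like cells. In B-like cells Xbp1 was at 104, 30.9 and 81.9 CPM and did not pass (edgeR adjusted p = 0.0558), but it was called lower with no replicate block (-1.66, 0.0313), with no filter on low counts, with the fixed hashtag rule, with the hepatocyte gate at 3%, without cells with other markers and without mouse 3, at log2 fold changes down to -2.77. Leaving out mouse 1 or mouse 2 ended all 4 calls, with adjusted p from 0.134 to 0.322 without mouse 1 and from 0.0996 to 0.521 without mouse 2. In 18 plasmacytoid dendritic-like cells, too few to test, Xbp1 stood at 323 CPM and Herpud1 at 374 CPM, pooled over tags.

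Herpud1 was at 88.9, 104 and 87.3 CPM in hepatocytes and at 267 and 356 CPM in conventional dendritic-like cells of mice 1 and 2. The groups did not overlap, and the log2 fold change was 1.89 ± 0.33 (SE; edgeR adjusted p = 0.000413), or 0.0789 as adjusted p without mouse 1. Endothelial-like cells had 147, 196 and 128 CPM, a difference that did not pass. Atf4 was at 85.0, 83.9 and 108 CPM in hepatocytes, at 484, 248 and 180 CPM in B-like cells and at 316, 154 and 176 CPM in T or NK-like cells. It was higher in B-like (log2 fold change 1.42 ± 0.38 SE, edgeR adjusted p = 0.0127) and in T or NK-like cells (0.91 ± 0.36, 0.0491). Both calls ended without mouse 1 (0.224 and 0.339) and with no filter on low counts (0.292 and 0.623), and the second also without mouse 3 (0.107).

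Atf3 was at 181, 301 and 88.0 CPM in hepatocytes and at 66.6, 38.5 and 17.6 CPM in T or NK-like cells, a log2 fold change of -2.64 ± 0.65 (SE; edgeR adjusted p = 0.00483) without overlap between the groups. In shallow hepatocytes alone Atf3 was at 74.3, 85.2 and 42.9 CPM in mice 1, 2 and 3, overlapping the T or NK-like values. Macrophage-like cells had 732 and 844 CPM of Atf3 and conventional dendritic-like cells 427 and 511 CPM, above every hepatocyte value, but neither difference passed (edgeR adjusted p = 0.0817 and 0.0953). In macrophage-like cells Atf3 was called higher under 4 alternatives, with library size alone, the fixed hashtag rule, mitochondrial shares up to 50% and without cells with other markers (log2 fold change 1.38 to 1.62, edgeR adjusted p = 0.0361 to 0.045). With no filter on low counts it was called higher in conventional dendritic-like cells (1.32) and lower in B-like (-1.42) and endothelial-like cells (-1.02), the last also with the gate at 3% (-1.34). In 12 cholangiocyte-like cells Atf3 was at 1334 CPM, pooled over tags, and was not tested. Hspa5 lay from 242 to 854 CPM in hepatocytes, 455 to 810 CPM in endothelial-like, 684 and 1186 CPM in macrophage-like, 836 and 865 CPM in conventional dendritic-like, 488 to 573 CPM in T or NK-like and 360 to 449 CPM in B-like cells. Hspa5, Dnajb9 and Ddit3 passed in no type, but each was called under some alternatives. In conventional dendritic-like cells Hspa5 was higher with mitochondrial shares up to 50% (1.08), with no filter (1.19) and without mouse 2 (1.63). Dnajb9 was lower there with library size alone (-1.13), with the gate at 3% (-1.17), without cells with other markers (-1.10) and without mouse 3 (-1.17), and with the gate at 3% also in endothelial-like cells (-0.91). Ddit3 was lower in endothelial-like cells with no filter (-1.17) and without mouse 3 (-1.80). Atf4 was higher in conventional dendritic-like cells with the gate at 3% (1.00), and Asns and Trib3, which the filter otherwise left out, were called lower there with no filter. Median depths were 9829 UMIs in conventional dendritic-like, 6527 in macrophage-like, 3728 in endothelial-like, 3232 in T or NK-like and 2135 in B-like cells.

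**Figure D4:**
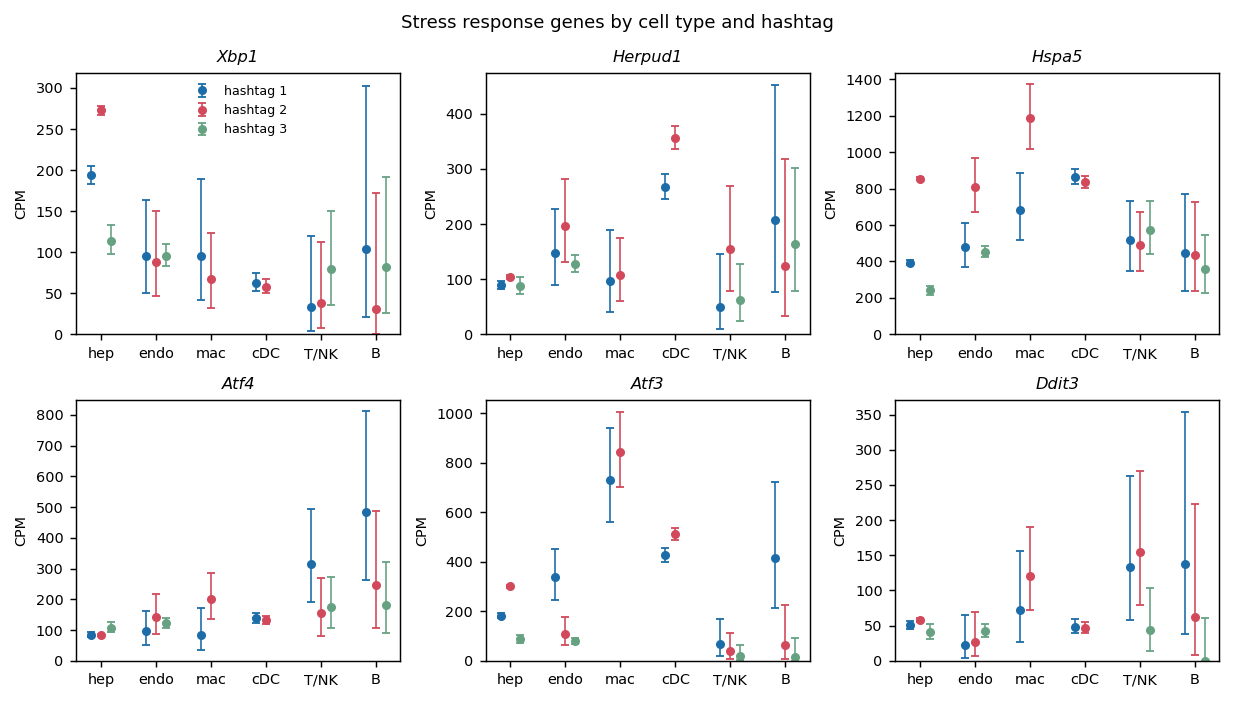
Levels in CPM of Xbp1, Herpud1, Hspa5, Atf4, Atf3 and Ddit3 in baseline hepatocytes (hep) and in endothelial-like (endo), macrophage-like (mac), conventional dendritic-like (cDC), T or NK-like and B-like cells, 1 point per mouse by hashtag with exact 95% Poisson intervals, for sums of at least 10 cells. Of these types, Xbp1 is highest in hepatocytes of all depths together (114 to 273 CPM) and Herpud1 in conventional dendritic-like cells (267 and 356 CPM).

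Within the deep baseline hepatocytes of a mouse the members also differed in how evenly cells carried them. Atf3 departed most from Poisson counting. Its variance over cells of mouse 2 was 22.1 times, and in mouse 1 15.1 times, that of Poisson counting alone. The ratio was 12.5 and 8.67 for Hspa5 and 4.33 and 1.81 for Ddit3. It grows with the mean count of a gene, so it does not rank genes of different abundance by evenness. The 10% of cells with the most Atf3 held 42.9% of its UMIs in mouse 2 and 59.8% in mouse 1. For Hspa5 this share was 25.9% and 34.9%, and for Ddit3 39.9% and 36.9%, an order opposite to that of their variance ratios. The median of Atf3 over single cells was 131 CPM in mouse 2 with a highest cell at 3090 CPM. Xbp1, at a level near that of Atf3, was more even than Atf3, with 2.69 and 2.16 times the Poisson variance in mice 2 and 1.

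Over single deep baseline cells thinned to equal depth, the Spearman correlation of Hspa5 with Herpud1 was 0.26 in 153 cells of mouse 1 and 0.24 in 827 cells of mouse 2. With Dnajb9 it was 0.28 and 0.20, with Xbp1 0.30 and 0.17, and with Ddit3 0.03 and 0.02. Atf3 had 0.32 and 0.10 with Hspa5, Atf4 -0.12 and 0.06, Trib3 0.05 and 0.05, and Asns -0.01 and -0.03. These values describe cells that share a mouse and a library, and they are weak. Over 19 sums of hepatocytes by mouse, Nras class and depth, which share mice and differ in depth, the genes most like Hspa5 among 4697 by Pearson r of log2(CPM + 1) were Sec11a (0.932), a signal peptidase subunit gene, Tmem97 (0.930) and Jun (0.906). Those most like Ddit3 were Fosb (0.763), Gadd45b (0.739) and Cxxc5 (0.724).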

How the data were processed

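The single-cell library of the pooled livers was deposited by the authors as raw UMI counts per gene and cell barcode (10x 3′ v3, mm10, Cell Ranger 2.1.1 per the processing notes, 3.0.2 per the file header), with hashtag counts made by CITE-seq-Count. Barcodes under 500 genes or 1000 UMIs, or with a mitochondrial share of 20% or more, were removed, and hashtags were called with HTODemux in Seurat 5.3.0 (positive quantile 0.99). Doublets by hashtag (271 cells) were left out of sums per mouse, with no other doublet caller run. Counts were summed per mouse and class of at least 10 cells and tested with edgeR 4.0.16 (R 4.3.3) by a quasi-likelihood F-test with TMM scaling, filterByExpr, the hashtag as a block and Benjamini-Hochberg adjustment over all genes tested, with a limit of 0.05. The same hashtag marks the same mouse, so the block comes from the design. The test was checked on simulated counts in which each mouse kept the same offset in all its classes. Changes that differ between mice were therefore not part of that check. DESeq2 1.42.0, other gates, limits, scalings, hashtag calls and thinned counts were alternatives. Intervals of levels are exact Poisson intervals and, like limits from a count of 0 (3 counts), cover counting error only. P-values rest on 2 or 3 mice. The members and companion lists were chosen with earlier results of these data known. All members were described, and of each companion list up to 3 genes with the largest rise and 3 with the largest fall in high against baseline Nras were named, beside Ern1, Atf6, Eif2ak3, Eif2ak4 and Ppp1r15a. Gene positions are from GENCODE and promoter sequences from RefSeq.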

Additional observations from a re-analysis of the deposited data

Results flagged for a closer look

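In 5 instances the members had a log2 ratio to baseline Nras of opposite sign in mouse 1 and mouse 2, with 95% counting intervals that left out 0 in both. For Hspa5, intermediate against baseline was 0.57 in mouse 1 and -0.65 in mouse 2. Atf3 had 0.68 and -0.39 in the same comparison and 0.61 and -0.10 for high against baseline. For Dnajb9 the values were 0.93 and -0.62 for intermediate and 0.47 and -0.36 for high against baseline. The difference between the mice was not tested. Counting intervals leave out the spread between cells and are too narrow here. In baseline cells of mice 1 and 2 that spread was 8.67 and 12.5 times Poisson variance for Hspa5 and 15.1 and 22.1 times for Atf3. For Dnajb9 it was 1.29 and 2.17 times. Mouse 1 had 15 intermediate and 32 high cells, and mouse 2 had 68 and 97. The deposited pairing gives these mice different alleles and the methods of the study the same one, so mouse and allele cannot be told apart here.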

How the results depend on the processing

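For all members tested in high against baseline and in deep against shallow, and for members that passed in a cell type, of 218 values under alternatives other than leaving out a mouse, 192 kept their direction and their side of the limit, 11 no longer passed, 7 newly passed and 8 changed sign, none of the last having passed. Dnajb9 in high against baseline became 0.03 with DESeq2, 0.06 with no replicate block, 0.03 with deep cells from 5000 UMIs, 0.01 with the fixed hashtag rule (at least 10 hashtag UMIs, 80% from 1 tag), 0.36 after thinning and 0.02 without cells with other markers. In deep against shallow, Ddit3 became -0.20 with the hepatocyte gate at 3% and Atf4 0.01 without cells with other markers. The 7 that newly passed were lower at high Nras: Hspa5 (-0.62) and Xbp1 (-0.52) with the fixed hashtag rule, Ddit3 (-0.40) with Nras quartiles, Herpud1 with library size alone and with no filter, and Xbp1 with no filter and without cells with other markers. Of the 11 lost, 4 were Hspa5, Atf3, Herpud1 and Dnajb9 in deep against shallow with the fixed hashtag rule, and 2 were Xbp1 in macrophage-like cells, with library size alone (adjusted p = 0.0644) and with mitochondrial shares up to 50% (0.0714). The others stand beside their results. Members that newly passed in a cell type or in the intermediate class are not in these counts and stand beside their results. With no replicate block, Xbp1 was called lower in B-like cells (-1.66), and no other member call changed.

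The number of genes that passed in high against baseline (2647) was 1324 with DESeq2 and 1145 after thinning, and in intermediate against baseline (1844) it was 956, 698 and, with Nras quartiles, 382. High against intermediate (2) gave 6 with DESeq2, 81 with no filter, 0 with no replicate block, 1169 with quartiles, 33 with the fixed hashtag rule, 31 with the gate at 3% and 7 without cells with other markers. Deep against shallow (1440) gave 2238 with no filter, 156 with the fixed hashtag rule, 660 with the gate at 3%, and 906 to 1765 when a mouse was left out. With no filter, 1921 genes passed in B-like, 4995 in conventional dendritic-like, 3485 in endothelial-like, 1959 in macrophage-like and 3132 in T or NK-like cells, where 1241, 1950, 1848, 1155 and 1984 had. Leaving out a mouse gave 177 to 807, 610 to 1909, 0 to 1341, 185 to 1187 and 875 to 1470 in the same order, the 0 without mouse 1 (1444 at an unadjusted p under 0.05). Arms left with 1 sum were assumed to vary like the others. The cause of these shifts was not tested. Without mouse 1 or mouse 2 the Nras fit had no residual degrees of freedom, so its calls could not be tested.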
